A study of Drosophila melanogaster with 3 samples.

Results

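The 10 cell cycle genes described here encode the cyclins CycA, CycB, CycB3, CycD and CycE, the kinases Cdk1 and Cdk2, the Cdc25 phosphatases stg and twe, and the Cdk inhibitor dap. They were taken by symbol from the Ensembl annotation of dm6, and all 10 of the 10 symbols matched 1 gene each among 13945 protein-coding genes and 18164 genes in all. Binding sites of Nf-YB were mapped by chromatin immunoprecipitation and sequencing in Drosophila melanogaster embryos from a transgenic line in which Nf-YB carries GFP at its C-terminal end, with an antibody against GFP. The single group consists of 3 biological replicates of whole embryos, 0 to 24 h old and of both sexes, each with 1 technical replicate. There was no second condition, so values are compared between genes and between replicates, and no test was applied. Whole embryos mix stages and tissues, so the cells that gave a peak cannot be told apart, and the labels do not say whether the untagged Nf-YB was still present.

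Cyclin-dependent kinases drive the cell cycle, and each needs a cyclin to be active. In the fly, CycE with Cdk2 acts at the start of S phase, and Cdk1 with CycA, CycB or CycB3 acts at mitosis once a Cdc25 phosphatase has removed its inhibitory phosphates. String (stg) is the Cdc25 that times the later embryonic divisions, twine (twe) is its germline and maternal relative, and dacapo (dap), of the p21 and p27 family, blocks CycE with Cdk2. Nf-YB is a subunit of NF-Y, a trimer that binds the CCAAT box, and in vertebrates CCAAT boxes occupied by NF-Y are a known feature of the promoters of cyclin A, cyclin B, Cdk1 and Cdc25 genes.

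The summit is the base of highest signal in a peak. The 101 bases around 5 summits are printed first, as examples of windows with and without a CCAAT box. Windows with a box are more frequent among them than among all 16 optimal summits of the genes, of which 7 had one. The printed windows thus do not show how often a box occurred. They are read on the strand of the member in dm6, from RefSeq's copy of the assembly, with the summit in the middle and each CCAAT box in capitals (ATTGG where the box lies on the other strand). The first 3 are the optimal summits inside CycE, 2 with a box at the summit and 1 without. The next is the summit between Cdk1 and its divergent neighbour, and the last lies beyond the 3' end of twe.
CycE, 447 bp upstream of the middle TSS, chr2L:15747007-15747107, minus strand: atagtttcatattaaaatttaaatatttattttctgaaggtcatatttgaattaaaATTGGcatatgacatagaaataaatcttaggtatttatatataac
CycE, 654 bp upstream, chr2L:15747214-15747314, minus strand: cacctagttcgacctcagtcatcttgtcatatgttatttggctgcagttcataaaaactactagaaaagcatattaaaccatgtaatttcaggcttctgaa
CycE, 897 bp downstream, chr2L:15745663-15745763, minus strand: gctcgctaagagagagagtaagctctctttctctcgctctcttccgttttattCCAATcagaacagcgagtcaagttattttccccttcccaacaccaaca
Cdk1, 282 bp upstream, chr2L:10386494-10386594, minus strand: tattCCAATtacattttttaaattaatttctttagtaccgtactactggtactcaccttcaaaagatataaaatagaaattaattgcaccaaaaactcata
twe, 3890 bp downstream, chr2L:16257824-16257924, minus strand: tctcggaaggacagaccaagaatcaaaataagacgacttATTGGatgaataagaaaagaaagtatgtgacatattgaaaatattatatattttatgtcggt

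Each deposited list gives a signal score per peak, used here to rank peaks within a list, with rank 1 the highest. For some pooled summits it is also given as a multiple of the median of the optimal list, and the scale of such multiples is unknown. The pooled list and each replicate list hold 30000 peaks, and the 6221 highest pooled peaks form the authors' optimal list of reproducible peaks. Read depth is unknown from these lists, so no counting interval can be given. The q-value does not rank them, since 91.2% of optimal peaks are tied at the highest value.

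Inside the genes or within 5 kb of them lay 16 optimal summits, at 6 of the 10 genes. CycA, CycB, CycE, Cdk1 and twe had 3 each and dap had 1, while CycB3, CycD, Cdk2 and stg had none. Of all protein-coding genes, 50.2% had an optimal summit by the same rule, so 6 of 10 is near the background. The members had a median length of 3156 bp against 2166 bp for all protein-coding genes, and longer genes have larger windows. Another 34 pooled summits below the optimal list lay in the same windows, which put 8 of the 10 genes in reach of a pooled summit, against 77.2% of protein-coding genes.

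Most of these optimal summits were closer to a neighbour than to the cell cycle gene. The nearest protein-coding transcription start site (TSS) belonged to the member for 6 of the 16 summits, namely all 3 at CycE, 2 at CycB and the 1 at dap. All summits near CycA and twe had the nearest TSS in a neighbour beyond the 3' end of the gene, and those near Cdk1 in a neighbour on either side. Within 500 bp of any protein-coding TSS lay 12 of the 16, against 41.9% of all optimal summits, and these windows were chosen around genes, so the larger share is not read as a property of the members.

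**Figure D1:**
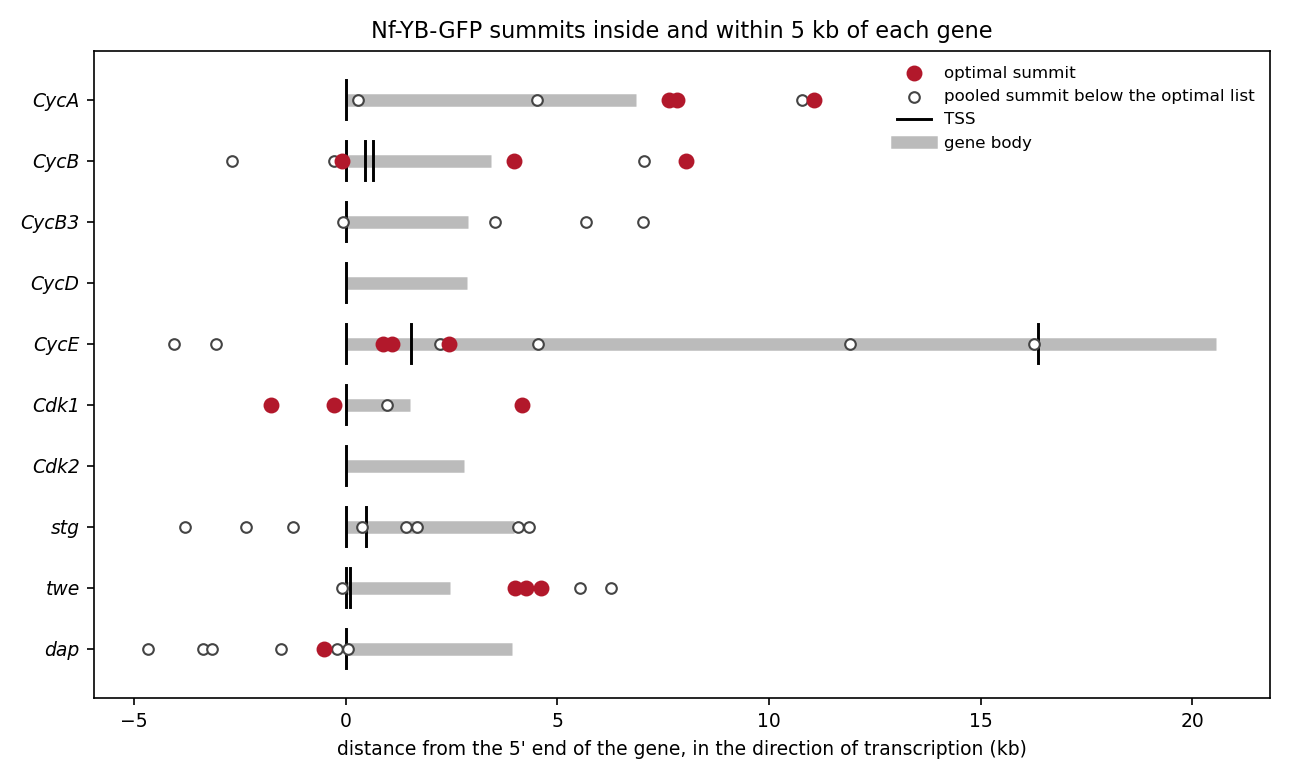
Summits along the 10 genes, plotted by distance in kb from the 5' end of each gene in its direction of transcription, with filled points for the 16 optimal summits, open points for the 34 pooled summits below the optimal list, vertical bars for annotated TSSs and grey bars for gene bodies. Filled points sit inside the gene body only at CycE, the longest of the genes, and CycD and Cdk2 have no point.

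Within 500 bp of one of their own TSSs, 3 of the 10 genes had an optimal summit (CycB, CycE and Cdk1), against 21.6% of all protein-coding genes. In the 6221 highest peaks of replicates 1, 2 and 3 the count was 4, 2 and 3, a mean of 3.00 ± 1.00 (SD, n = 3), and 21.1%, 19.0% and 22.6% of all protein-coding genes were counted there. The genes were CycB, CycB3, CycE and Cdk1 in replicate 1, CycB3 and CycE in replicate 2, and CycE, Cdk1 and dap in replicate 3. Only CycE was counted in all 3 replicates. With all 30000 pooled peaks 8 of the 10 genes had a summit at a TSS, against 48.1% of protein-coding genes. CycD and Cdk2 were the genes without one. At 250 bp the optimal count was 1, with the 83 bp summit of CycB alone inside, and at 600 bp it was 4, since the summit of dap lay 514 bp upstream, just outside the limit.

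CycE, the S-phase cyclin, had the strongest promoter summits of the 10 genes and was the only one with optimal summits in its body. It is also the longest of the 10, at 20570 bp against a median of 3156 bp, so its body has more room for a summit. The share of all protein-coding genes with an optimal summit in the body was not counted. The gene (FBgn0010382) runs on 2L from 15727581 to 15748150 on the minus strand and has 6 transcripts from 3 TSSs. Its highest summit ranked 1060, with 2.54 times the median signal of the optimal list, in the peak on 2L from 15746923 to 15747171. This summit lay 447 bp upstream of the middle TSS, from which 3 transcripts start, and 1093 bp downstream of the first, in an intron of the longer transcripts. The replicates placed their summit 445, 451 and 467 bp upstream of the same TSS and ranked it 1660, 1246 and 809, a mean rank of 1238 ± 426 (SD, n = 3). All 3 replicates thus found it among their 6221 highest peaks, and the positions differed by 22 bp in all.

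A second CycE summit lay 207 bp from the first, 654 bp upstream of the middle TSS, in the adjoining peak from 15747151 to 15747336. It ranked 1310 in the pooled list and 1744, 1678 and 1255 in the replicates. The third CycE summit, at rank 3050 in the peak from 15745491 to 15745934, lay 897 bp downstream of the middle TSS in the following intron, and the replicates ranked it 2874, 2600 and 4225. The TSS of the noncoding RNA gene lncRNA:CR44974 was closer, with the summit at -544 bp (upstream) from it. The replicate positions of this summit spread over 23 bp. Below the optimal list, a pooled summit at rank 13046 lay 108 bp upstream of the last TSS and was matched in replicates 1 and 2 (ranks 25046 and 12429) and not in replicate 3. Replicate 1 had another, stronger summit there, 10 bp downstream of that TSS at rank 7009. The optimal summits of CycE thus all lay within 1 kb of the middle TSS.

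The mitotic cyclins differed in where their summits lay. CycB (FBgn0000405, 2R from 22803521 to 22806948, minus strand, 4 transcripts from 3 TSSs) had the strongest summit of all, at rank 583 and 4.99 times the list median, but at the other end of the gene. That summit lay in intergenic sequence 554 bp beyond the 3' end, in the peak from 22802793 to 22803140, and 3336 bp downstream of the nearest TSS of CycB, which was also the nearest protein-coding TSS. The replicates ranked it 564, 655 and 607, a mean of 609 ± 45.5 (SD, n = 3), and put it within 13 bp of each other. Of the 13 summits matched in all replicates it had the smallest spread of position.

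At the promoter of CycB the signal was low and varied between replicates. The optimal summit 83 bp upstream of the first TSS ranked 5940, in the peak from 22806809 to 22807252, with 0.588 times the median signal of the optimal list. Its rank was 2993 in replicate 1, 19776 in replicate 2 and 9386 in replicate 3, and the matched summits lay 137, 28 and 96 bp upstream. Replicate 1 alone had it among its 6221 highest peaks. The third CycB summit, at rank 2168, lay 181 bp upstream of blw, which encodes the alpha subunit of mitochondrial ATP synthase, and is a promoter summit of that neighbour, with ranks of 2515, 2211 and 2176 in the replicates.

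CycA (FBgn0000404, 3L from 11826719 to 11833578, minus strand) had no optimal summit at its TSS. A pooled summit at rank 7200 lay 297 bp downstream of the TSS in the 5' UTR, with ranks of 6623, 12129 and 12696 in the replicates, none of them in the 6221 highest. The 3 optimal summits of its window lay 969, 769 and 4206 bp beyond the 3' end, at ranks 1386, 4017 and 6218. The strongest, in the peak from 11825528 to 11825971, was 18 bp upstream of the TSS of CG32095, and its replicate ranks of 1490, 1392 and 1438 were nearly the same. The next was 218 bp upstream of the same TSS, and the last was 238 bp upstream of CG11597 and was not matched in replicate 3. The CycA window thus held strong summits only at promoters of neighbours.

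CycB3 (FBgn0015625, 3R from 24867934 to 24870816, minus strand), which encodes a B-type cyclin that promotes anaphase, had no optimal summit within 5 kb. The nearest lay 5951 bp from the gene and belonged to the promoter of CG3744. The highest pooled summit of its window, at rank 7745, lay 209 bp upstream of the neighbour Elal, and the replicates ranked it 11256, 20192 and 5123. At its own TSS the pooled list had a summit 69 bp upstream at rank 8792, which replicates 1 and 2 ranked 5377 and 7329. Replicate 3 had no summit within 500 bp of this TSS.

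Cdk1 shared its promoter summit with a divergent neighbour. Cdk1 (FBgn0004106, 2L from 10384739 to 10386262, minus strand, 1 transcript) encodes the mitotic kinase, and its TSS lies 400 bp from that of mRpS7, a mitochondrial ribosomal protein gene on the other strand. In this interval the peak from 10386322 to 10386765 had its summit 282 bp upstream of Cdk1 and 118 bp upstream of mRpS7, at rank 2996 and 1.02 times the list median. The replicates ranked it 4738, 6415 and 2096 and placed it 290, 263 and 270 bp upstream of Cdk1. Replicate 2 had it just below its 6221 highest peaks. A single summit cannot be given to either gene, and the mRpS7 TSS is the closer one. The other 2 optimal summits of the Cdk1 window lay 76 bp upstream of da, a bHLH transcription factor gene (rank 3836), and 162 bp upstream of CG5096 in the 3' UTR of gny (rank 1612).

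Cdk2 and CycD had the least signal. Cdk2 (FBgn0004107, 3R from 20735623 to 20738414, plus strand), the S-phase kinase, had no pooled summit within 5 kb, and the nearest pooled and optimal summits lay 16105 and 83656 bp away. In the replicates its window held 1 summit in all, in replicate 3 at rank 28775, 4717 bp downstream of the TSS. CycD (FBgn0010315, X from 15906822 to 15909676, minus strand), the cyclin of Cdk4, had no summit within 5 kb in the pooled list or in any replicate. Its nearest pooled summit was the optimal peak at rank 5099, 14621 bp away, 1 bp from a TSS of shi, the dynamin gene. CycE thus had strong summits while its partner Cdk2 had none at a TSS in any list.

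Both Cdc25 genes had pooled summits at their TSSs, and no optimal one there. The window of stg (FBgn0003525, 3R from 29251826 to 29255800, minus strand) held 8 pooled summits, the highest at rank 13421. This one lay 98 bp upstream of the second TSS, in the 5' UTR of the longer transcript, and ranked 9185 and 8221 in replicates 1 and 2, while replicate 3 had its nearest summit 104 bp away at rank 18123. The next, at rank 15795, lay 1216 bp downstream of a TSS in an intron and was likewise matched in replicates 1 and 2, at ranks 12596 and 10158. The nearest optimal summit lay 18984 bp from stg.

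For twe (FBgn0002673, 2L from 16259414 to 16261877, minus strand), the pooled list had a promoter summit 92 bp upstream at rank 19769, and no replicate had a summit within 100 bp of it. The 3 optimal summits of its window lay 2155, 1789 and 1540 bp beyond its 3' end, at the divergent start of PRL-1, a tyrosine phosphatase gene, and EndoGI. The strongest, at rank 1950 in the peak from 16257098 to 16257401, lay 347 bp downstream of a PRL-1 TSS and was matched in replicate 3 alone, at rank 1671. Replicates 1 and 2 had their nearest summits at ranks 2739 and 1509, just outside the match of 100 bp. The others lay 19 bp upstream of PRL-1 (rank 3983) and 131 bp upstream of a TSS of EndoGI (rank 4699).

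The inhibitor gene dap (FBgn0010316, 2R from 9712321 to 9716256, plus strand, 1 transcript) had 3 pooled summits around its TSS, and the replicates differed in which they held. Its optimal summit, at rank 6199 and 0.569 times the list median, lay 514 bp upstream in the peak from 9711585 to 9712028. It was matched in replicate 1 alone, 455 bp upstream at rank 7929. A pooled summit 212 bp upstream, at rank 7268 and below the optimal list, was matched in replicates 2 and 3 at ranks 7855 and 3638 and not in replicate 1. A further one 67 bp downstream, in the 5' UTR at rank 9813, was matched in all 3 at ranks 6953, 7502 and 14124. The optimal summit of dap was thus unmatched in 2 of the 3 replicates.

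**Figure D2:**
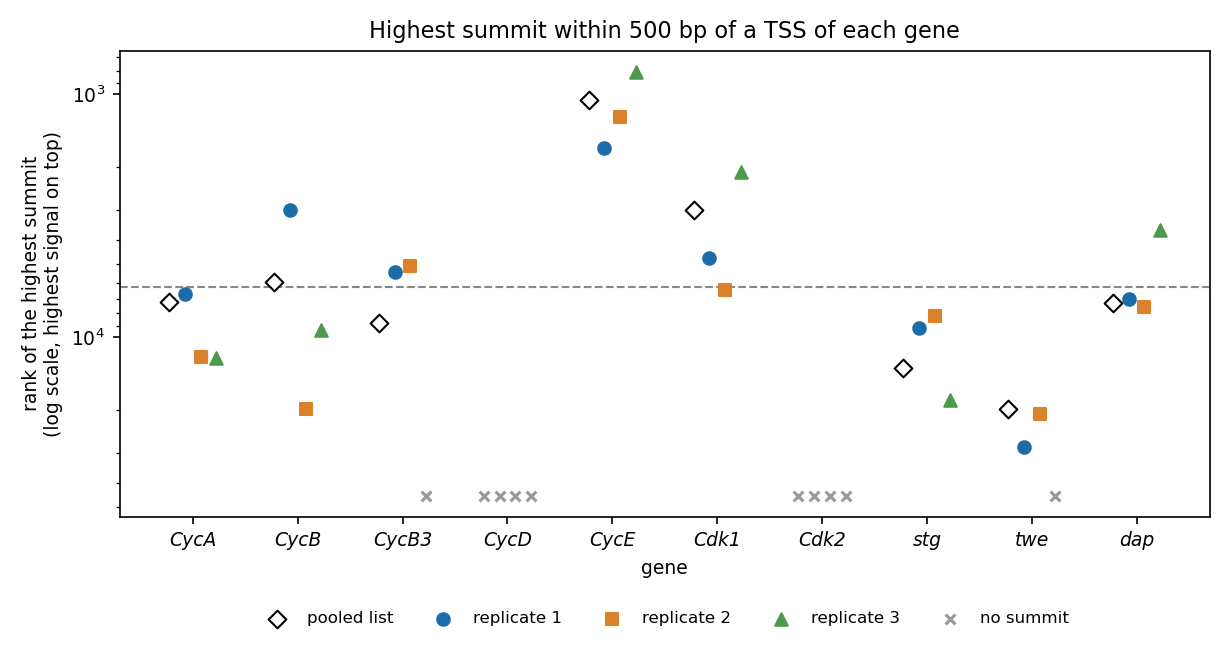
Rank of the highest summit within 500 bp of a TSS of each gene, on a log scale with high signal on top, for the pooled list and each replicate, with the dashed line at rank 6221 (the length of the optimal list) and crosses for lists without a summit. CycE ranks between 809 and 1660 in every list, above all other genes, and CycD and Cdk2 have no summit in any.

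The order of promoter signal can be read against the replicates. CycE was first in each of the 3 replicates, and its lowest replicate rank (1660) was above the best of any other gene (2096, Cdk1 in replicate 3). Cdk1 (2096 to 6415), CycB (2993 to 19776) and dap (3638 to 7502) overlapped in their ranges, and CycA (6623 to 12236) and stg (8221 to 18123) overlapped each other, CycB and, for CycA, dap, so these neighbours in the order do not differ beyond their spread. CycB3 ranked 5377 and 5119 in replicates 1 and 2, with none in replicate 3, and twe ranked 28399 and 20773. The summits of one gene in different lists need not be at the same base.

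By the highest optimal summit of the whole window the order was CycB, CycE, CycA, Cdk1, twe and dap, with ranks of 583, 1060, 1386, 1612, 1950 and 6199. The replicate ranks of CycB (564 to 655) did not overlap those of CycE (809 to 1660), while CycE, CycA (1392 to 1490) and Cdk1 (1236 to 2514) overlapped one another. Of the 16 summits, 13 were matched within 100 bp in all 3 replicates, against 85.9% of all optimal summits, 1 in 2 replicates and 2 in 1. The 43 matched replicate summits lay a median of 14 bp from the pooled one, against 13 bp over all optimal summits, and 29 of them lay within 20 bp. Among the 6221 highest peaks of replicates 1, 2 and 3 were 13, 10 and 13 of the matches, and the ranks in replicate 2 reached lowest at the promoters of CycB, EndoGI and da.

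**Figure D3:**
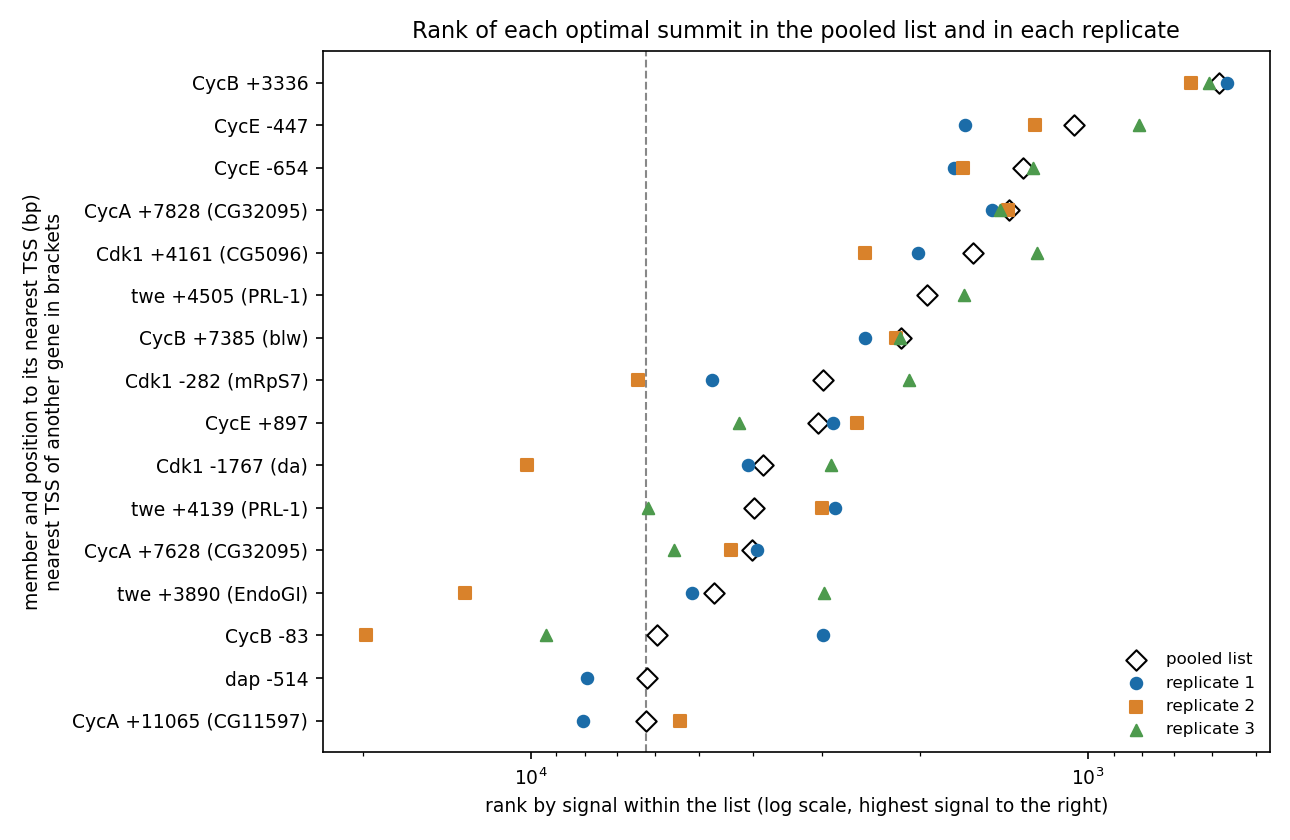
Rank by signal of the 16 optimal summits in the pooled list (diamonds) and in replicates 1, 2 and 3, on a log scale with high signal to the right, labelled by member, position to its nearest TSS in bp and, in brackets, the neighbour with the nearest TSS; the dashed line marks rank 6221. The summit beyond the 3' end of CycB sits between 564 and 655 in all lists, and the one 83 bp upstream of CycB runs from 2993 to 19776.

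CCAAT, searched on both strands, lay within 50 bp of the summit at 7 of the 16 summits (43.8%), against 27.0% of all optimal summits. These were 2 of the 3 at CycE and 1 each at Cdk1, at dap, at CG32095 near CycA, and at PRL-1 and EndoGI near twe. At CycE the box lay 8 bp downstream of the strongest summit and 5 bp downstream of the third, and both stayed within 50 bp of the summit in all 3 replicates. No other member summit kept a box in all 3. At Cdk1 the box lay 44 bp upstream of the summit, near the edge of the window, and only the summit of replicate 1 had it within 50 bp. Counted at the replicates' own summits, 6 of 15, 3 of 14 and 4 of 14 had a box in replicates 1, 2 and 3. The share over all summits was not counted at replicate summits. Against the 27.0% above, 3 of 14 is lower and 4 of 14 is close, so 7 of 16 is not read as an excess.

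No CycB summit had a box. None lay within 250 bp of any of the 3, and around the summit beyond the 3' end of CycB, the strongest of the 16, no CCAAT was found within 1000 bp to either side. The second CycE summit, printed above without capitals, had its nearest box 187 bp upstream. Over the 16 summits the median distance to the nearest CCAAT was 74 bp, against 141 bp over all optimal summits. Median GC content in the 101 bp around the summit was 31.7% at the member summits and 38.6% at all optimal summits. The distances were taken at the pooled summits only, and whether base composition accounts for their difference was not tested. The shorter median distance is therefore not read as a property of the members.

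**Figure D4:**
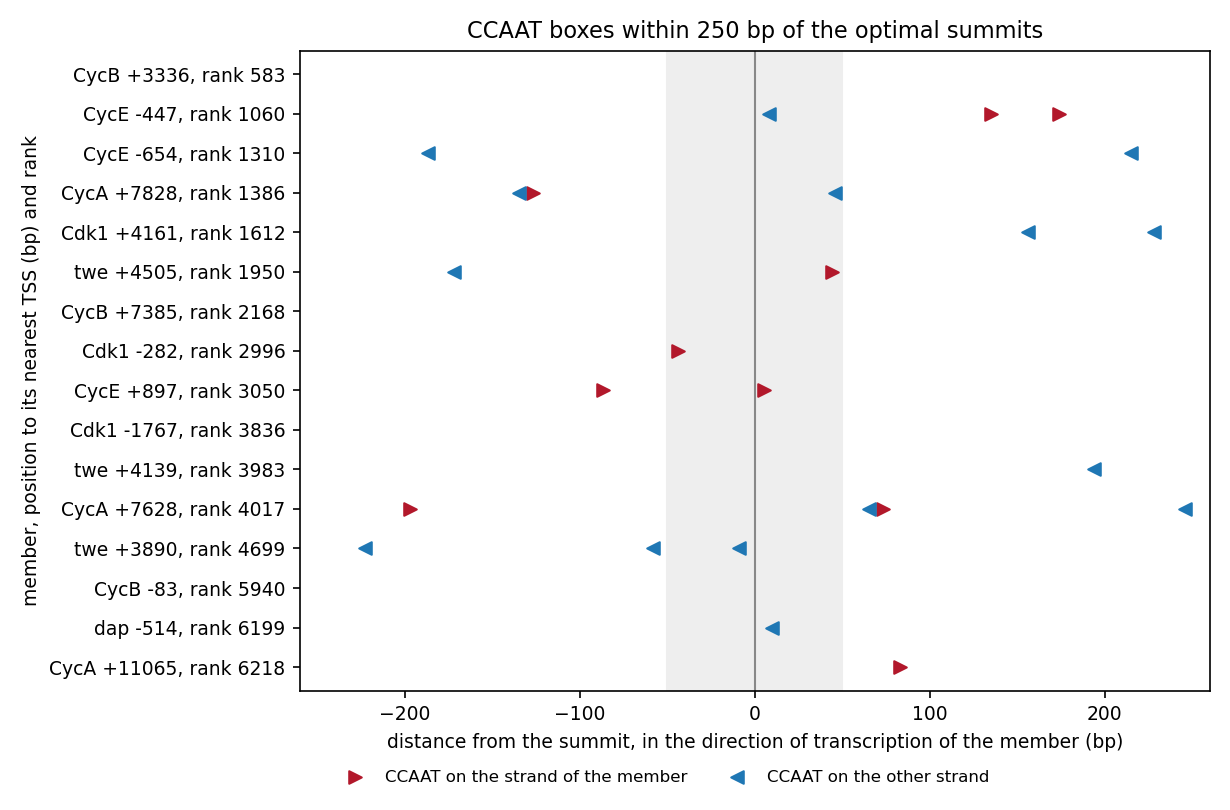
CCAAT boxes within 250 bp of the 16 optimal summits, by distance in bp in the direction of the member's transcription, with arrowheads for the strand of the box and a grey band for 50 bp to each side of the summit. Of the 16 rows, 7 have a box in the band, the closest being those of CycE at 5 and 8 bp, and the 3 CycB rows are empty.

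Bases that follow the box differed between the sites. NF-Y is known to prefer CCAAT followed by C or G and then A or G, and this longer form was searched on both strands (as CCAATCA and also CCAATCG, and with the other base next to the box as CCAATGA and also CCAATGG). It was present within 50 bp at 2 of the 16 summits, against 11.4% of all optimal summits. They were the third summit of CycE and the CG32095 promoter near CycA. Of the 7 sites, 6 are printed with 10 bases to each side, all read so that the box reads CCAAT. The site at dap, which did not have the longer form, is not shown.
CycE, summit 897 bp downstream of the middle TSS, chr2L:15745696-15745720, minus strand: ccgttttattCCAATcagaacagcg
CG32095 beyond CycA, in the 5' UTR, chr3L:11825692-11825716, plus strand: tttttctacaCCAATcgtataaggg
CycE, summit 447 bp upstream, chr2L:15747037-15747061, plus strand: atgtcatatgCCAATtttaattcaa
Cdk1 and mRpS7, chr2L:10386576-10386600, minus strand: ttgcggtattCCAATtacatttttt
PRL-1 beyond twe, in the 5' UTR, chr2L:16257203-16257227, minus strand: cacacaccagCCAATtgcattcgtg
EndoGI beyond twe, chr2L:16257871-16257895, plus strand: tcttattcatCCAATaagtcgtctt

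Other elements were counted in the same windows. GAGAG, the GAGA element, was within 50 bp at 1 of the 16 (the third summit of CycE, in the run of GA repeats printed above), against 18.0% of all optimal summits. TTTGAA, the core of the cell cycle homology region that accompanies CCAAT boxes in vertebrate mitotic promoters, was found at 4 of the 16, against 13.6%. These were the summit beyond the 3' end of CycB, the strongest summit of CycE, and the summits of Cdk1 at 282 bp and dap at 514 bp upstream, and those of CycE, Cdk1 and dap also had CCAAT. In this order their GC content was 26.7%, 17.8%, 24.8% and 26.7%, against a median of 38.6% at all optimal summits. Whether base composition accounts for the count was not tested. The share of all optimal summits with both TTTGAA and CCAAT was not counted, so having both is not read as a property of the members. The CCAAT at Cdk1 stayed within 50 bp of the summit in replicate 1 alone, and that at dap in no replicate. The DNA replication-related element TATCGATA and the E2F sites TTTCGCGC and TTTGGCGC were found at none, against 1.22% and 0.948% of all optimal summits. At such shares fewer than 1 of 16 summits would hold either.

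CCAAT at the TSS was counted separately from the peaks. From 250 bp upstream to 50 bp downstream of a TSS, CCAAT was present at 5 of the 10 genes (CycA, CycB3, CycE, stg and twe), against 53.3% of protein-coding genes. Of these 5, CycE had an optimal summit within 500 bp, while CycB and Cdk1 had an optimal promoter summit and no box in that stretch. The boxes within 50 bp of the optimal summits of CycE lay outside that stretch, so the box counted here for CycE is another one.

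Other cell cycle genes were covered by a list of 38, made of further cyclins and Cdks, E2F and Rb factors, and regulators of Cdk activity, mitosis and protein degradation. An optimal summit lay within 500 bp of a TSS at 15 of the 38 (39.5%), against the 21.6% of all protein-coding genes given above. The 6221 highest peaks of replicates 1, 2 and 3 gave 15, 14 and 16, a mean of 15 ± 1 (SD, n = 3). Of all protein-coding genes, 21.1%, 19.0% and 22.6% were counted there. The genes counted were not the same in each replicate. Only Cdk4, Cdk12, Dp, mts, grp, mei-41 and Cul1 were counted in all 3. In the pooled list 32 of the 38 (84.2%) had one, against 48.1% of protein-coding genes. The strongest were at Cul1, a ubiquitin ligase scaffold, at rank 440 and 324 bp downstream, and at Cdk4, the kinase partner of CycD, at rank 757 and 357 bp downstream. Both had CCAAT within 50 bp of the summit, and the other 13 had none at their highest promoter summit. A box was thus found at 2 of the 15 genes, against 27.0% of all optimal summits. The 27.0% covers summits at any distance from a TSS. The share for promoter summits alone was not counted, so the 2 values are not compared further. The replicates ranked the Cdk4 summit 799, 661 and 857. It ranked above the promoter summit of CycE in the pooled list and in replicates 1 and 2, and below it in replicate 3 (809 for CycE), so the ranges of Cdk4 and CycE overlap. CycD had no promoter summit in any list.

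The S-phase factor genes Dp and E2f1, which encode the partners of the E2F activator, had summits 155 and 261 bp upstream at ranks 1301 and 4936, and Rbf2, an Rb family gene, had one at rank 2215, closest to CG32856. The mitotic kinase genes aurA and aurB had summits 63 and 187 bp upstream at ranks 3393 and 4501. Checkpoint kinase genes mei-41 and grp followed at ranks 2253 and 2455. The others were Cdk12 (rank 1937), mts, the PP2A catalytic subunit gene (2028), trbl, whose product acts on String protein (4136), fzy, a mitotic activator of protein degradation (5778), ago, whose product targets CycE protein for degradation (5907) and CycG (5955). The summits counted for mts, mei-41 and ago were closest to the TSS of a neighbour, as at Cdk1, and that of fzy lay 115 bp upstream of both fzy and its neighbour cni. The summit of ago was matched in replicate 3 alone, that of E2f1 in replicates 2 and 3, and that of Rbf2 in replicates 1 and 3.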

How the data were processed

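Peak lists of 3 biological replicates of 1 group were used. Per the labels, chromatin was sonicated to fragments of 200 to 800 bp and the assembly is dm6. According to the deposited readme texts, peak calling was done per replicate and on the pool of 3, each time with 1 control alignment, and the optimal list was thresholded by the irreproducible discovery rate. Which programs aligned reads and called peaks, and at what threshold, is not given in the sources used here, and the control was not analysed here. The deposited lists give a score (signal value) and a −log10 q-value per peak. The authors' relation of the score to depth is not given, so it served only for ranks and, in the pooled list, for multiples of the optimal median.

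The summit was the peak start plus its deposited offset, counted from 1. Genes came from Ensembl release 115 on 6 chromosome arms without transposable elements, and sequence from the RefSeq copy of the same assembly. A replicate summit was matched when it was the nearest within 100 bp. Promoter counts used 500 bp around every annotated TSS and motifs 50 bp around the summit. Counting rules were tested on made-up data. Python 3.11.15, pandas 2.3.3, NumPy 2.4.6 and matplotlib 3.10.9 were used.

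The genes, the list of 38 other genes and the motifs were chosen with earlier results of these data known. All 10 genes are named with their optimal summits, or their highest pooled one, and every listed gene with an optimal promoter summit. The longer CCAAT form, the 600 bp and the 150 bp windows were added after seeing the data. Alternatives covered windows, lists, match distances and replicates.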

Additional observations from a re-analysis of the deposited data

How the results depend on the processing

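Of 53 alternatives to 7 counts, 33 stayed within 1.5 times the count reported and 20 did not. The number of genes with an optimal summit at a TSS was 1 of 10 with 250 bp and 8 with the pooled list, and for the 38 other cell cycle genes it was 9 with 250 bp, 8 with the 3110 highest optimal peaks and 32 with the pooled list. Without a flank, 1 gene and 3 optimal summits were left, all 3 matched in every replicate and 2 with CCAAT. With those 3110 peaks, 9 optimal summits were left and 8 of them were matched. Restricted to summits nearest to the member, 6 optimal summits were left, 5 of them matched and 3 with CCAAT. The CCAAT count was 4 within 25 bp, and 3 and 4 at the summits of replicates 2 and 3. Pooled summits numbered 32 with a flank of 2 kb, 14 without a flank and 21 when restricted to those nearest to the member. Leaving out 1 replicate gave 13 to 14 matched summits, and matches within 150 bp, added after seeing the data, gave 14. No paired analysis was possible because the study has 1 group. Depth is unknown, so it is not known which low ranks are limited by it.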
